A study of Bos taurus with 38 samples.

Results

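The genes described here encode parts of the ubiquitin and proteasome system in the Longissimus dorsi (LD) muscle of newborn beef calves. They were chosen by symbol, as the genes whose symbol starts with FBXO, FBXL, FBXW, TRIM, USP with a digit, UBE2, UBE3, PSM, KLHL, ASB with a digit, CUL with a digit or RNF. Of 27607 genes in the count table, 2878 had a symbol here, 60 of these matched the rule, and 58 were kept because they averaged at least 1 CPM over the calves, where CPM is the read count of a gene scaled to the library total of its calf. Symbols came only from the study's own supplementary lists. All 58 members were in its lists of genes changed by a Se treatment, as were 2718 of the 2878 genes with a symbol, so the treatment comparisons helped to choose the members, and no gene with an FBXW or CUL symbol was among them. Just inside the level threshold were KLHL3 with a mean of 1.07 CPM, USP18 with 1.21, FBXO24 with 1.24 and TRIM56 with 1.30. Just outside it were USP43 with 0.705 and KLHL32 with 0.684 CPM.

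The LD was biopsied 12 to 48 h after birth in 38 calves of Angus and Angus-cross cows aged 5 to 9 years. Control dams (CTR, n = 10 calves) received no Se boluses. The other dams were given Se-yeast boluses, 3 per week for 13 weeks and 105 mg Se/wk, in trimester 1 (TR1, n = 9), 2 (TR2, n = 10) or 3 (TR3, n = 9) of pregnancy. All dams, CTR included, had access to a mineral supplement with 120 mg/kg Se from Na selenite. Calves had a common sire through artificial insemination or were sired by several other bulls, and 14 were female and 24 male, with 4, 2, 3 and 5 females in CTR, TR1, TR2 and TR3. Each library came from a separate calf, so the spread between libraries includes the spread between animals.

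Ubiquitin is a small protein that is attached to other proteins by an activating enzyme, a conjugating enzyme and a ligase, and a chain of it marks a protein for the proteasome. The ligases give the system its choice of target: some act as single proteins with a RING domain, as TRIM and RNF proteins do, and others are complexes in which an F-box, KLHL or ASB protein holds the target. In skeletal muscle FBXO32 (atrogin-1) and TRIM63 (MuRF1) are the ligases known for their rise in fasting, disuse and glucocorticoid excess, under control of FOXO transcription factors. The proteasome itself is a barrel of proteolytic subunits with regulatory caps, and interferon replaces some of its subunits with those of the immunoproteasome.

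Total counts per calf lay between 12921223 and 17471666, so 1 CPM corresponded to more than 12 counts in every calf. CPM are not corrected for gene length and are compared here only between calves for the same gene. The 7 muscle fibre markers (CKM, ACTA1, MYLPF, TNNT3, MYH1, MYH2 and DES) summed to between 57346 and 149884 CPM, and none was at 0 in any calf. The 7 leukocyte markers, which include PTPRC and CD163, summed to at most 20.4 CPM, and the 3 adipocyte markers to at most 49.2 CPM. In such a biopsy, fewer cells of a type and less RNA per cell cannot be told apart. The calf A2052 of TR1, a female of a 5-year-old dam, stood apart: it had the lowest muscle fibre sum, the highest normalization factor (1.35) and the smallest share of counts in its 10 highest genes (16.3%). It held the highest CPM of all calves in 22 of the 58 members (37.9%), against 32.7% of 11687 genes at 1 CPM or more. Values of single named genes that turned or moved most without A2052 are given both ways beside the result. Counts of members above 0 and the ranges and medians of classes in the treatment contrasts include A2052 unless stated.

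Measured as the highest calf over the median calf, the atrophy ligases FBXO32 (31.3-fold) and TRIM63 (13.1-fold) had the widest spread of the members. The SD of log2 CPM, which single calves move less, was taken with library totals scaled by the normalization factors. By it FBXO32 was first with 1.45 and KLHL38 second with 1.12, and TRIM63 had 0.75. FBXO32 ranged from 0.828 CPM in the TR2 calf A2023 to 213.6 in A2052, with a median of 6.83 over the 38 calves. Its lowest, median and highest values were 1.14, 7.45 and 31.9 CPM in CTR and 3.65, 8.88 and 213.6 in TR1. They were 0.828, 7.65 and 95.1 CPM in TR2 and 2.91, 5.78 and 13.9 in TR3. The 4 groups overlapped over most of their range, and the medians lay far closer together than the calves of any group. TRIM63, which sits at the sarcomere and marks thick filament proteins for degradation, ranged from 43.8 CPM in the CTR calf A2091 to 1543 in A2052, and its second highest value was 210.2 in A2100. Its medians were 107.4, 120.6, 130.0 and 107.3 CPM in CTR, TR1, TR2 and TR3, and all groups overlapped.

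**Figure D1:**
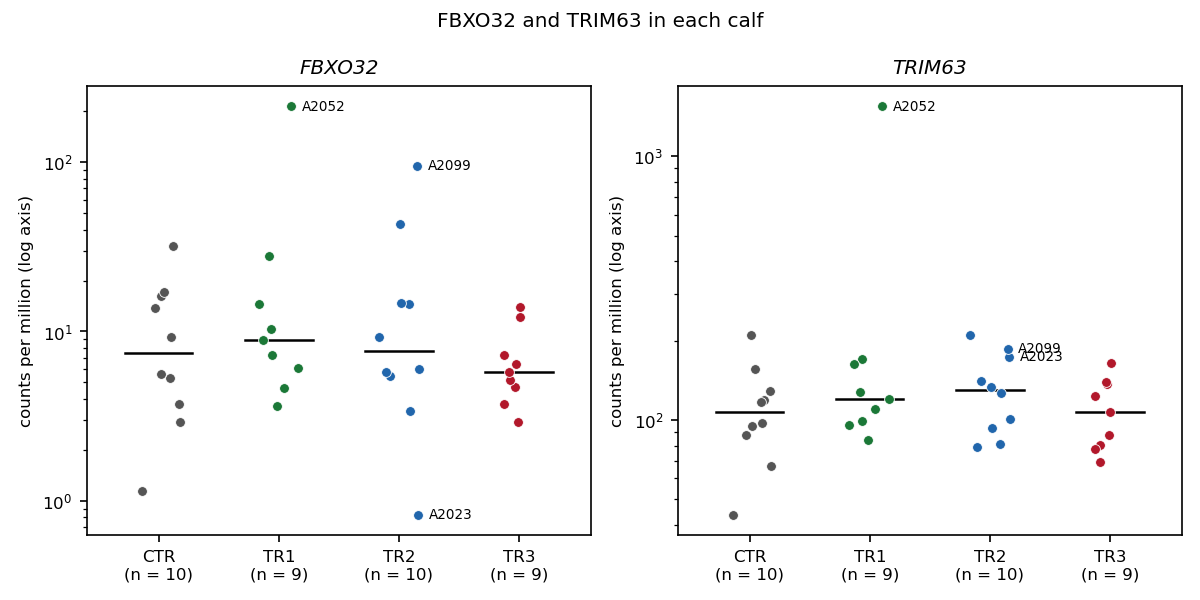
CPM of FBXO32 and TRIM63 in each of the 38 calves (points) on a log axis, by group, with the group median as a black line. Calf A2052 of TR1 is the highest in both genes (213.6 and 1543 CPM), whereas the TR2 calf A2023 is the lowest in FBXO32 (0.828 CPM) but not in TRIM63.

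The wide spread was shared by other members. The highest calf exceeded the median calf by more than 2-fold in 31 of the 58 members (53.4%), against 38.3% of the 11687 genes at 1 CPM or more, and the median of this fold was 2.02 in the members and 1.81 in those genes. A2052 was the highest calf in 17 of the 31, and without it the counts were 26 members (44.8%) and 27.3% of the genes. The treatment comparisons that helped to choose the members can be moved by a single extreme calf. This comparison with all genes is therefore a description and no independent result. In A2052, USP54, a member of the deubiquitinase family, reached 76.4 CPM against an overall median of 9.79, and TRIM45 reached 42.9 against 7.27. PSME4, the proteasome activator that opens the barrel without ubiquitin, reached 612.4 CPM in A2052 against a median of 97.1, and TRIM28, a corepressor with ligase activity, 351.5 against 68.5. A2023 held the lowest value in 14 members (24.1%, against 14.8% of the genes) and the highest in 1 (1.72%, against 7.07% of the genes). KLHL40, which stabilizes thin filament proteins in muscle, split the calves differently: its highest values were 839.0 CPM in A2100, 674.4 in A2023 and 506.5 in A2052, and the other 35 calves lay between 85.6 and 283.8.

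The treatment contrasts, TR1, TR2 and TR3 vs. CTR, ask whether Se given to the dam in a trimester changed muscle transcripts of the newborn. Because these contrasts helped to choose the members, their values are a description. With edgeR's quasi-likelihood F-test, dam age and sex as covariates, 0 of the 58 members reached an adjusted p under 0.05 in each of the 3 contrasts, and the same was found for all 12964 genes tested (0% in each contrast). At an unadjusted p under 0.05 there were 6 members in TR1, 13 in TR2 and 5 in TR3, against 2.55%, 8.34% and 1.35% of all genes. DESeq2 called 0 members in each of them and 0, 1 and 0 genes, and 9, 16 and 5 members had an unadjusted p under 0.05 with it. The members split almost evenly between higher and lower, with 29 of 58 positive in TR1, 32 in TR2 and 27 in TR3, and median log2 fold changes of -0.0019, 0.03 and -0.02. These counts and medians include A2052. In no member did the CPM of a treatment group lie wholly above or below those of CTR, which was also so for all genes tested (0%).

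Among ligases, the log2 fold change of FBXO32 was 0.93 (SE 0.75) in TR1, 0.98 (SE 0.66) in TR2 and -1.0 (SE 0.74) in TR3. Each of these rested on few calves. Without A2052 the TR1 value turned to -0.26 (SE 0.57) and the TR3 value became -0.47, although A2052 is in neither TR3 nor CTR, since all groups share the sex and dam age terms, and without the TR2 calf A2099 the TR2 value was 0.04. TRIM63 stood at 0.76 (SE 0.38) in TR1, 0.30 in TR2 and -0.30 in TR3, and without A2052 at 0.03, 0.22 and -0.01. The TRIM, RNF and F-box classes each had values on both sides of 0 in the 3 contrasts. The 8 TRIM genes ranged from -0.39 to 0.58 in TR1 and from -0.65 to 0.41 in TR2, with 4 and 3 of 8 positive. The 10 RNF genes had medians of -0.06, -0.01 and -0.06, and of the 6 F-box genes, 5, 4 and 5 were positive in TR1, TR2 and TR3. Both UBE genes stayed between -0.30 and 0.27 in the 3 contrasts.

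The KLHL and ASB proteins are substrate adaptors of cullin ligases, and several are made mainly in striated muscle. KLHL40 had a log2 fold change of 0.90 (SE 0.32) in TR2, where its lowest, median and highest CPM were 113.3, 161.9 and 839.0 against 85.6, 109.0 and 283.8 in CTR. All 10 TR2 calves were above the CTR median of KLHL40, and without A2100 the value fell to 0.42. KLHL41, a partner of KLHL40 in the sarcomere, was at 0.30 (SE 0.15) in TR2 with ranges of 1948 to 4817 CPM in TR2 and 1842 to 3473 in CTR. KLHL38, a KLHL gene of striated muscle, had the lowest log2 fold change of TR3, -1.01 (SE 0.46): its CPM lay between 4.47 and 21.8 in TR3 with a median of 7.37, and between 1.83 and 44.3 in CTR with a median of 16.9. Only 1 of the 9 TR3 calves exceeded the CTR median of KLHL38. KLHL3 had the lowest value of TR1, -0.75 (SE 0.32), with 0.290 to 1.27 CPM in TR1 and 0.591 to 1.72 in CTR. KLHL3 shares its region with MYOT, a highly transcribed muscle gene, in RefSeq's ARS-UCD2.0 gene table, and the strand used for counting is not given in the sources used here, so its counts are uncertain. The 4 ASB genes were all positive in TR3 (0.11 to 0.30) and had medians of -0.08 and -0.12 in TR1 and TR2.

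**Figure D2:**
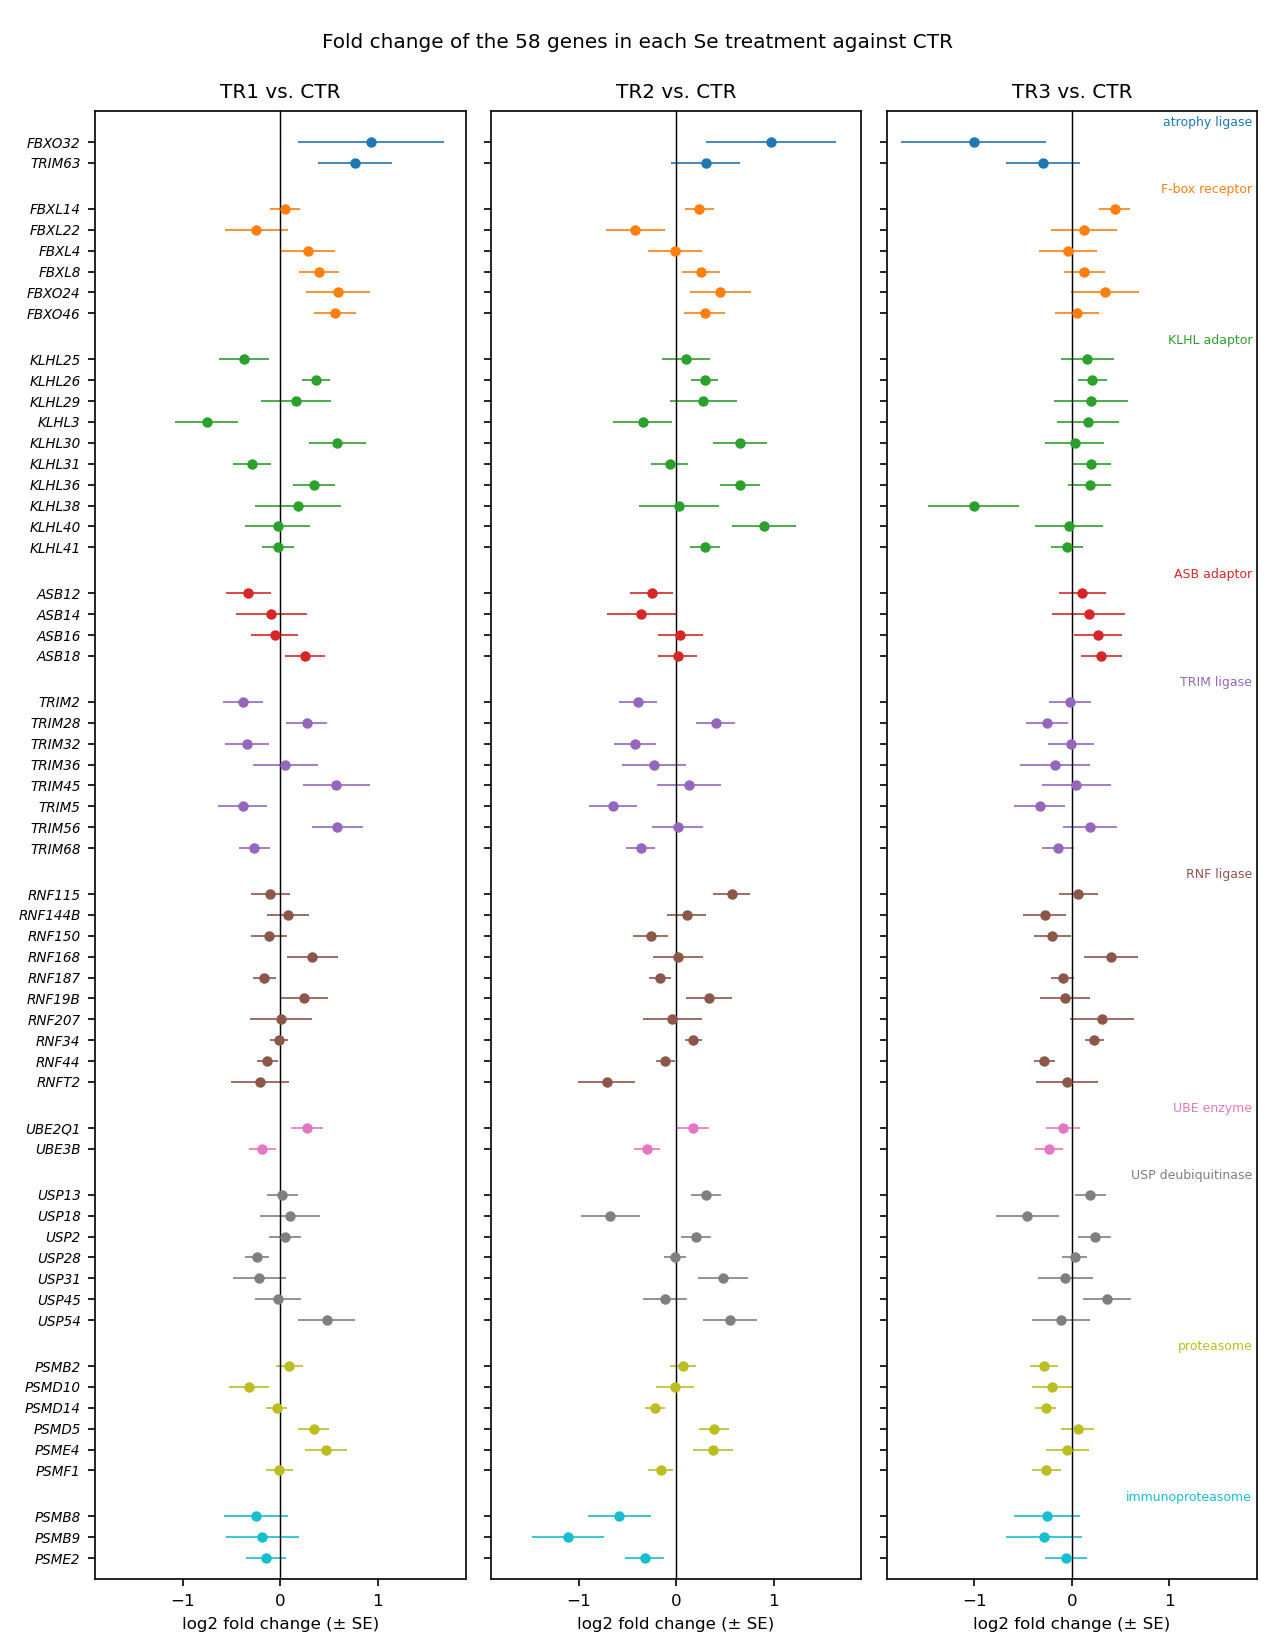
Log2 fold changes (points) with SE (bars) of the 58 members in TR1, TR2 and TR3 vs. CTR, from edgeR with dam age and sex as covariates, ordered and coloured by role. FBXO32 has the widest SE, and the 3 immunoproteasome genes lie below 0 in each contrast.

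USP proteins remove ubiquitin. USP18, which takes the interferon-induced modifier ISG15 off proteins, was at 0.10 (SE 0.30) in TR1, -0.67 (SE 0.30) in TR2 and -0.46 (SE 0.32) in TR3. Its CPM were 0.299 to 2.13 in CTR and 0.278 to 1.58 in TR2, and 1 of the 10 TR2 calves exceeded the CTR median. USP2, a deubiquitinase that follows the circadian clock in many tissues, was at 0.05, 0.20 and 0.24 in TR1, TR2 and TR3, with 77.3 to 180.5 CPM in CTR and 119.6 to 180.1 in TR3. Of the 7 USP genes, 4 were positive in each of the contrasts with A2052 included. In TR1 without A2052, USP18 was at 0.11 and USP2 at 0.14, and the other USP genes were negative.

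Of the constitutive proteasome genes, PSMD5, a chaperone that assembles the regulatory cap, was at 0.34 (SE 0.16) in TR1, 0.39 (SE 0.15) in TR2 and 0.06 (SE 0.17) in TR3. Its CPM were 15.3 to 27.1 in CTR, 16.6 to 44.4 in TR1 and 17.9 to 41.0 in TR2, and 8 of 9 TR1 and 9 of 10 TR2 calves were above the CTR median. PSMD14, the cap subunit that cuts ubiquitin off the entering protein, was at -0.04 (SE 0.11), -0.21 (SE 0.10) and -0.27 (SE 0.11), with a single calf of TR2 and a single calf of TR3 above the CTR median. PSMB2, a subunit of the barrel, was at 0.09, 0.07 and -0.29, with -0.054 in TR1 without A2052 and -0.035 in TR2 without A2023. PSMD10, the cap chaperone also called gankyrin, was at -0.33, -0.01 and -0.20. PSMF1, an inhibitor of proteasome activation, was at -0.01, -0.16 and -0.26. PSME4 was at 0.47 (SE 0.21) in TR1, 0.38 in TR2 and -0.05 in TR3, and its TR1 value became 0.07 (SE 0.12) without A2052. In CTR its lowest and highest CPM were 75.5 and 105.2, and in TR1 they were 77.5 and 138.3 apart from A2052.

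The immunoproteasome genes are PSMB8 and PSMB9, inducible proteolytic subunits, and PSME2, part of the inducible activator. All 3 were negative in every contrast, at -0.25, -0.18 and -0.15 in TR1, at -0.58, -1.11 and -0.32 in TR2 and at -0.25, -0.28 and -0.06 in TR3. PSMB9 in TR2 was the largest log2 fold change of any member (-1.11, SE 0.37). Its lowest, median and highest CPM were 0.603, 1.48 and 3.70 in TR2 and 1.05, 3.51 and 7.19 in CTR, and 1 of 10 TR2 calves exceeded the CTR median. The values of PSMB8 were 3.99, 8.62 and 12.4 CPM in TR2 and 4.47, 10.1 and 30.6 in CTR. The TR1 and TR3 values of PSMB8 turned to 0.01 and 0.02 without the CTR calf A2034, its highest. That of PSMB9 in TR1 turned to 0.014 without the CTR calf A2038, and that of PSME2 in TR3 to 0.019 without the TR3 calf A2033. With the share of the 10 highest genes as a further term, PSME2 in TR1 was at 0.094. The 3 genes were also correlated across calves, as given with the member pairs.

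Genes of the same pathways outside the rule came from lists written with earlier results of these data known. Of the 138 genes in them, 136 were in the study's own lists of genes changed by a Se treatment, so their directions in these contrasts are no independent evidence. The 24 genes linked to muscle atrophy, such as FOXO3, KLF15 and IRS2, centred on log2 fold changes (medians) of 0.62 for TR1, 0.67 for TR2 and -0.28 for TR3, where the medians of all genes were 0.0016, 0.0075 and -0.0093. The 13 antigen presentation genes, such as TAP1 and B2M, had medians of -0.38, -0.96 and -0.14, with 13, 13 and 11 negative. The 22 interferon-induced genes had medians of 0.22, -0.73 and -0.21. None of these genes passed the adjusted threshold in any of the 3 contrasts. The list medians include A2052 and were not computed without it. In TR2 the 6 fibroblast markers, which include COL1A1 and LUM, were all below CTR (median log2 fold change -0.59), with summed CPM of 281 to 606 in TR2 and 453 to 1121 in CTR, and their part in the TR2 values was not tested.

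Calf sex and dam age were not used to choose the members. Between female and male calves, 0 of the 58 members passed an adjusted p of 0.05 in edgeR's quasi-likelihood F-test, against 4 of all genes tested (0.0309%), and DESeq2 called 0 members as well. With both tools 2 members had an unadjusted p under 0.05, against 6.61% of all genes with edgeR. These were RNF144B, a ligase linked to cell death, with a log2 difference of female minus male of -0.38 (SE 0.16, adjusted p = 0.683), and RNF187 with -0.20 (SE 0.09, adjusted p = 0.725). The third by p was PSMB2 with 0.20 (SE 0.10), and without A2052 it was at 0.079. RNF144B averaged 46.9 CPM in the 14 females and 63.3 in the 24 males. Per year of dam age, 0 members passed the adjusted threshold with edgeR, against 0% of all genes, and 0 with DESeq2, and 2 had an unadjusted p under 0.05 with either tool, against 3.36% of all genes with edgeR. USP54 changed by -0.20 log2 per year (SE 0.08) and PSME4 by -0.13 (SE 0.06), both with an adjusted p of 0.993, and without A2052 these slopes were -0.05 and -0.02. RNF187 had the third smallest p, with 0.06 log2 per year (SE 0.04).

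How the members vary together within groups was tested next, with group, sex and dam age in the fit. The slope on FBXO32 is the log2 change of a gene for each doubling of FBXO32 in CPM. With edgeR's quasi-likelihood F-test adjusted over all genes, 15 of the 57 other members passed, 10 rising and 5 falling with FBXO32, against 20.2% of the 12963 genes tested (10.5% rising, 9.68% falling). The members were all in the study's lists of changed genes, and single extreme calves can move those lists. All genes tested are therefore no matched background for the members, and their counts on this slope, here and below, are a description. At an unadjusted p under 0.05 there were 19 members, against 33.1% of genes. KLHL38 had the steepest slope at 0.64 (SE 0.06, adjusted p = 1.79e-08). It was followed, by size, by TRIM45 at 0.34 (SE 0.07), USP54 at 0.30 (SE 0.04), TRIM63 at 0.28 (SE 0.07), FBXL4 at 0.24 (SE 0.06) and PSME4 at 0.22 (SE 0.03), with adjusted p from 3.91e-06 to 0.00387. TRIM28 at 0.15 and PSMF1 at 0.12 rose as well, as did RNF144B at 0.16 and RNF19B at 0.15. The falling members were KLHL29 at -0.30 (SE 0.09), FBXL22 at -0.24 (SE 0.09), which is a sarcomeric F-box protein, PSMD10 at -0.19 (SE 0.04), USP2 at -0.14 (SE 0.04) and USP28 at -0.11 (SE 0.03).

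A2052 carried part of this pattern. Without it 12 members passed (8 rising and 4 falling, against 13.9% of genes), and 8 of them were among the 15. TRIM63, TRIM28, FBXL4, RNF19B, USP2, KLHL29 and FBXL22 no longer passed, and TRIM63 had a slope of 0.05 (SE 0.07, adjusted p = 0.675 in edgeR). KLHL38 was steeper without A2052, at 0.74 (SE 0.07, adjusted p = 2.4e-09 in edgeR), whereas USP54 at 0.18 and PSME4 at 0.12 were flatter and still passed. KLHL40 at -0.29, PSMB2 at -0.09, PSMB8 at 0.29 and PSMB9 at 0.32 passed only without A2052. Without A2052, A2023, A2099 and A2100, a choice made after the values were seen, 5 members passed against 3.99% of genes: KLHL38 at 0.85, TRIM45, RNF144B, PSME4 at 0.13 and FBXL22 at -0.24. FBXO32 itself correlated within groups with the normalization factor (r = 0.37) and the muscle fibre sum (r = -0.23), and their part in the slopes was not tested.

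**Figure D3:**
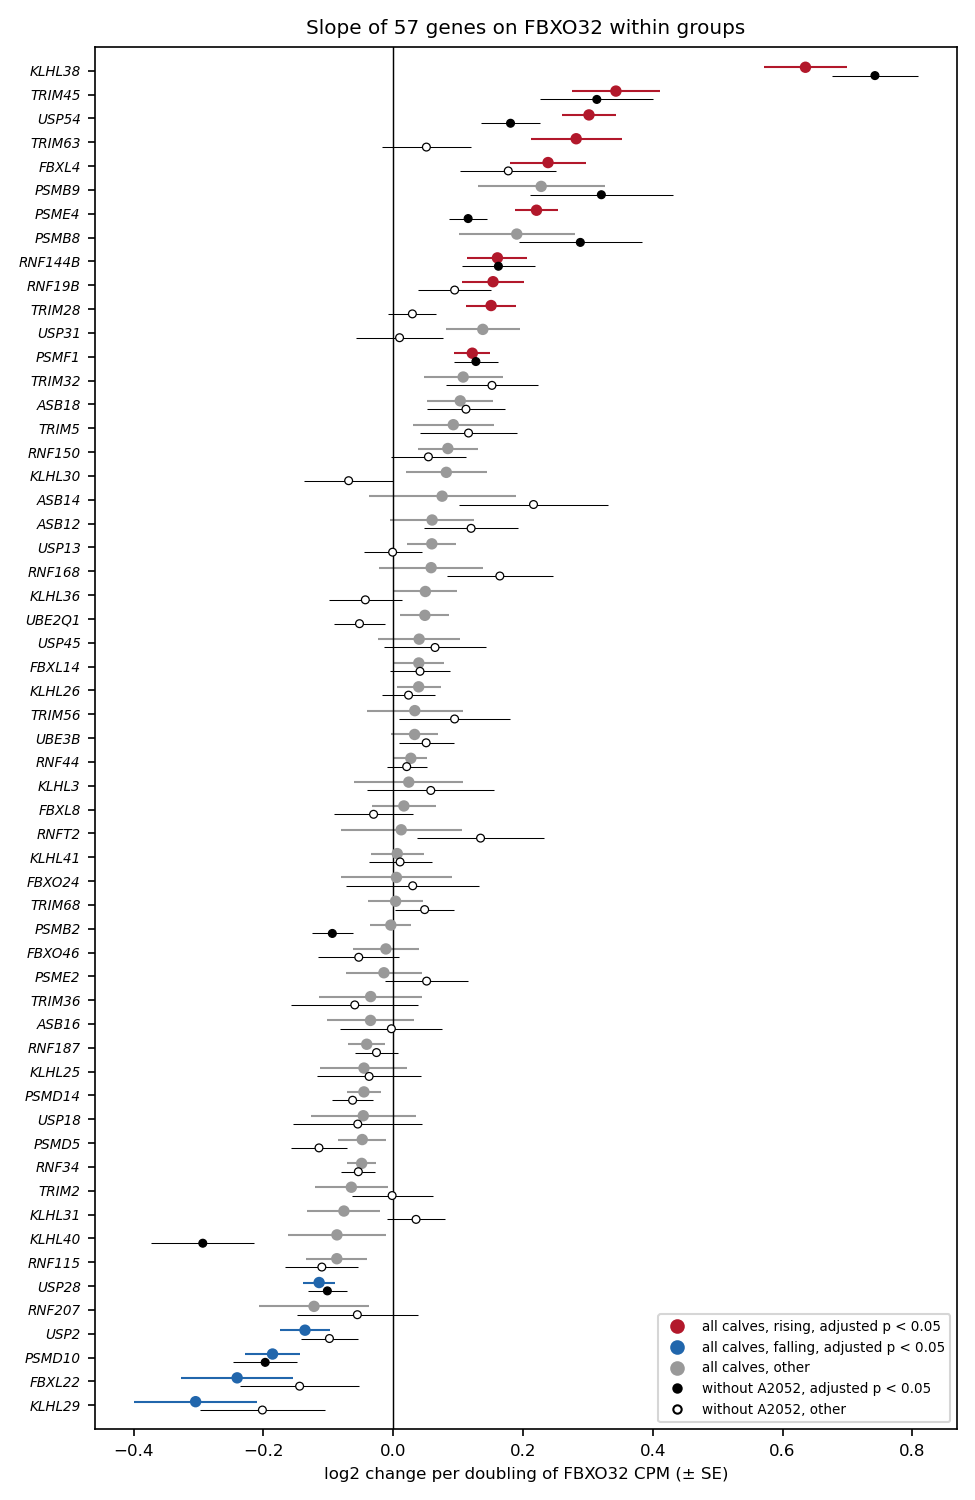
Slopes (points, with SE as bars) of 57 members on FBXO32 within groups, for all 38 calves (large points, red or blue where the adjusted p was under 0.05) and without A2052 (small points, filled where it was). KLHL38 is highest in both fits (0.64 and 0.74), and TRIM63 moves from 0.28 to 0.05.

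The related lists were written with earlier results of these data known, and 136 of their 138 genes were in the study's lists of changed genes. All genes tested are therefore no matched background for them, and the counts below are a description. The atrophy-linked list rose with FBXO32 in 15 of its 24 genes and fell in 0, against 10.5% and 9.68% of all genes, with a median slope of 0.23. The smallest p belonged to IRS2, an insulin receptor substrate, at 0.64 (SE 0.06), PIK3IP1, an inhibitor of phosphoinositide 3-kinase, at 0.43 (SE 0.04), and SESN1, which restrains growth signalling, at 0.41 (SE 0.05). Without A2052, 6 of the 24 rose, all among the 15, against 5.64% of genes, and the median slope was 0.08. Without A2052 and A2099, the 2 calves farthest from the FBXO32 median, 2 rose and 2 fell, against 4.88% and 8.57% of genes. The median slope was then 0.024, 13 of the 15 no longer passed, and CEBPD, EIF4EBP1, GLUL and HIF3A among them changed sign. Of 16 autophagy genes 10 rose, led by DEPP1 at 0.45, BNIP3L at 0.21 and ULK1 at 0.23, and 1 fell, MUL1 at -0.14, with 7 rising and 1 falling without A2052. The other ubiquitin genes gave 13 rising and 3 falling of 55, with ZFAND5, which stimulates the proteasome, at 0.42 and SAE1, an activating enzyme of the modifier SUMO, at -0.20, and 9 rising and 2 falling without A2052. Of 13 chaperone genes none rose and 6 fell, led by HSPA8 at -0.18, HSPH1 at -0.33 and STIP1 at -0.14, and 7 fell without A2052. The interferon list had 2 of 22 rising and the antigen presentation list 2 of 13, and these became 10 and 5 without A2052. Without A2052, A2023, A2099 and A2100, 4 atrophy-linked genes rose and 1 fell, 3 autophagy genes rose, no chaperone passed (0), and the interferon and antigen presentation lists had 1 and 0 rising, against 1.78% of genes rising and 2.21% falling.

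On the PSMB8 slope 3 of 57 members passed in edgeR's quasi-likelihood F-test, against 2.46% of genes (1.32% rising, 1.14% falling). An unadjusted p under 0.05 was found in 13, against 18.4%. All genes tested are no matched background for the members here either, so these counts are a description. PSMB9 rose at 0.99 per doubling of PSMB8 (SE 0.11, adjusted p = 9.75e-08) and PSME2 at 0.36 (SE 0.09, adjusted p = 0.0222). KLHL40 fell at -0.53 (SE 0.15, adjusted p = 0.0475 in edgeR) and narrowly missed the threshold without A2052, at -0.49 (adjusted p = 0.0504 in edgeR), but passed without A2052, A2023, A2099 and A2100, at -0.33 (adjusted p = 0.0241 in edgeR). PSMB9 passed in every fit tried, whereas PSME2 did not pass without the 2 calves farthest from the PSMB8 median, A2034 and A2038, where its slope was 0.37 (adjusted p = 0.0732 in edgeR). The constitutive subunits had slopes from -0.20 (PSMD5) to 0.00028 (PSMF1), and none passed. USP18 had a slope of 0.17 and did not pass.

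Genes outside the members rose with PSMB8 as well. As for FBXO32, the counts in the related lists are a description, since all genes tested are no matched background for them. Of the 13 antigen presentation genes 12 rose, with TAP1, the peptide transporter, at 1.28 (SE 0.09), BOLA-DMB, an MHC class II chaperone, at 1.14 (SE 0.11) and GBP2, an interferon-induced GTPase, at 2.39 (SE 0.26) having the smallest p. Of 22 interferon-induced genes 17 rose, with UBA7, the activating enzyme of ISG15, at 1.24 (SE 0.09), PARP14 at 0.86 (SE 0.08) and EPSTI1 at 0.91 (SE 0.09) having the smallest p. Among the other ubiquitin genes 3 of 55 rose, UBA7, HERC6 at 0.94 and DTX3L at 0.78, and the first 2 are also in the interferon list. Of the atrophy-linked and autophagy lists 0 genes passed with edgeR, with unadjusted p under 0.05 in 2 and 1. Of the chaperones 1 fell, CRYAB at -0.86 (SE 0.23). Without A2052 the counts were 12 of 13 and 19 of 22, and all the genes called with it were among them. PSMB8 correlated within groups with the smooth muscle sum (r = -0.55), the endothelial sum (r = -0.41) and the share of the 10 highest genes (r = 0.38), and with the leukocyte sum at r = 0.18. With the share of the 10 highest genes as a further term, PSMB9 still passed at 1.01, whereas PSME2 at 0.25 (adjusted p = 0.139 in edgeR) and KLHL40 at -0.37 (adjusted p = 0.261) did not, and 145 genes passed in place of 319. The part of the marker sums in the slopes was not tested.

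**Figure D4:**
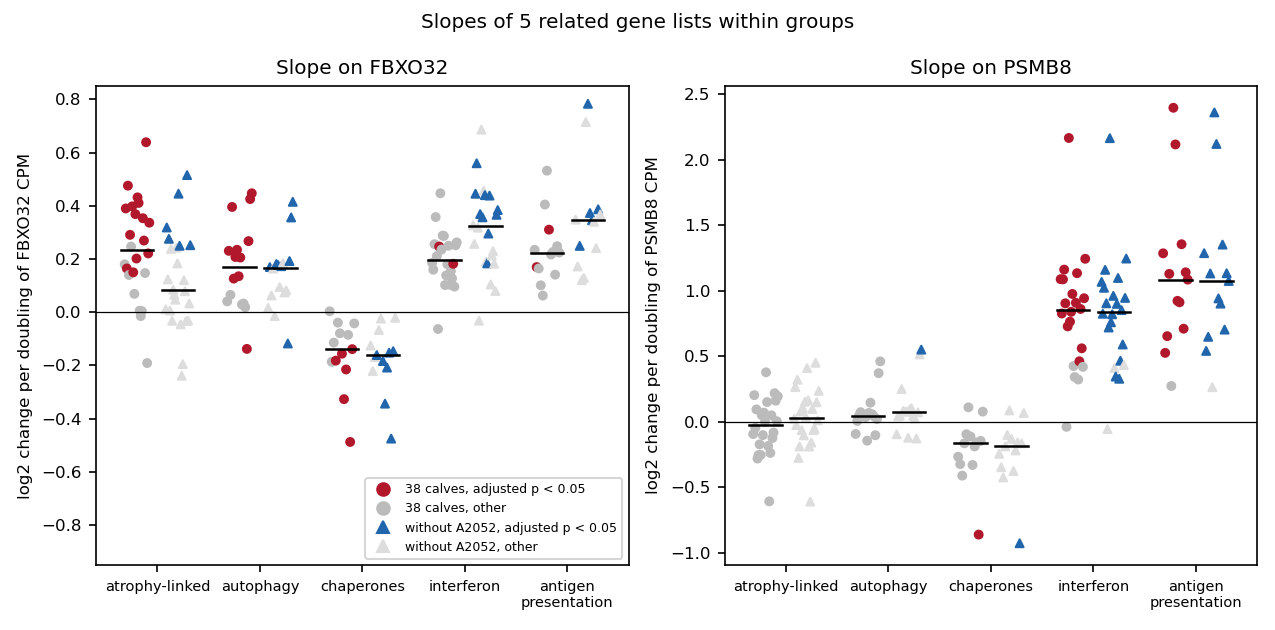
Slopes on FBXO32 (left) and on PSMB8 (right) of the genes of 5 related lists, for 38 calves (circles) and without A2052 (triangles), coloured where the adjusted p was under 0.05, with the list median as a line. The median of the atrophy-linked genes on FBXO32 goes from 0.23 to 0.08, whereas that of the antigen presentation genes on PSMB8 is 1.08 and 1.07.

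Pairs of members were compared by the correlation of log2 CPM across the 38 calves after group, sex and dam age were removed, with 100000 permutations within groups, 2-sided, and adjustment over 10 pairs. The 10 pairs were chosen with earlier results of these data known. The adjustment does not cover that choice, so the p-values of all 10 pairs are a description. FBXO32 and KLHL38 had r = 0.88 and rho = 0.90 (both permutation p = 1e-05, the smallest these permutations can give, and adjusted p = 5e-05). Within the groups r was 0.98 (CTR), 0.85 (TR1), 0.90 (TR2) and 0.72 (TR3), and without the 2 calves farthest from the FBXO32 median, A2052 and A2099, it was 0.92. FBXO32 and TRIM63 had r = 0.50 (adjusted permutation p = 0.0129) and rho = 0.31 (adjusted p = 0.0793). Without A2052 and A2099 this r was 0.13 (adjusted permutation p = 0.545), so that the pooled relation no longer held. Within the groups r was 0.51 (CTR), 0.85 (TR1, which holds A2052), 0.01 (TR2) and 0.39 (TR3), and without A2052, A2023, A2099 and A2100 it was 0.31. FBXO32 and PSME4 had r = 0.73 and rho = 0.62 (adjusted permutation p = 6.67e-05 and 0.000625), and r = 0.49 without those calves. FBXO32 and USP2 ran in opposite directions with r = -0.54 and rho = -0.49 (adjusted permutation p = 0.00392 and 0.00493), and r was -0.30 (adjusted permutation p = 0.132) without them, so that this relation did not hold without those 2 calves by r, while rho was -0.37 (adjusted permutation p = 0.0415). FBXO32 and PSMD14 had r = -0.31 (adjusted permutation p = 0.098) and rho = -0.36 (adjusted p = 0.0448).

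Among the proteasome genes, PSMB8 and PSMB9 had r = 0.85 and rho = 0.84 (adjusted permutation p = 5e-05 for both), with 0.66 to 0.92 within the groups and 0.82 without A2034 and A2038. PSMB8 and PSME2 had r = 0.58 and rho = 0.58 (adjusted permutation p = 0.000175 and 0.000625), and r = 0.53 without those calves. PSMB8 and USP18 had r = 0.17 and rho = 0.08 (adjusted permutation p = 0.357 and 0.624), and r was -0.57 in TR2 and between 0.31 and 0.53 in the other groups. PSMB2 and PSMD14, both constitutive, had r = 0.43 and rho = 0.53 (adjusted permutation p = 0.0208 and 0.00238), and r = 0.52 without A2052 and A2023. The muscle adaptors KLHL40 and KLHL41 had r = 0.48 and rho = 0.48 (adjusted permutation p = 0.00455 and 0.00405). Without A2100 and A2023 their r was 0.34 (adjusted permutation p = 0.0538) and rho 0.53.

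**Figure D5:**
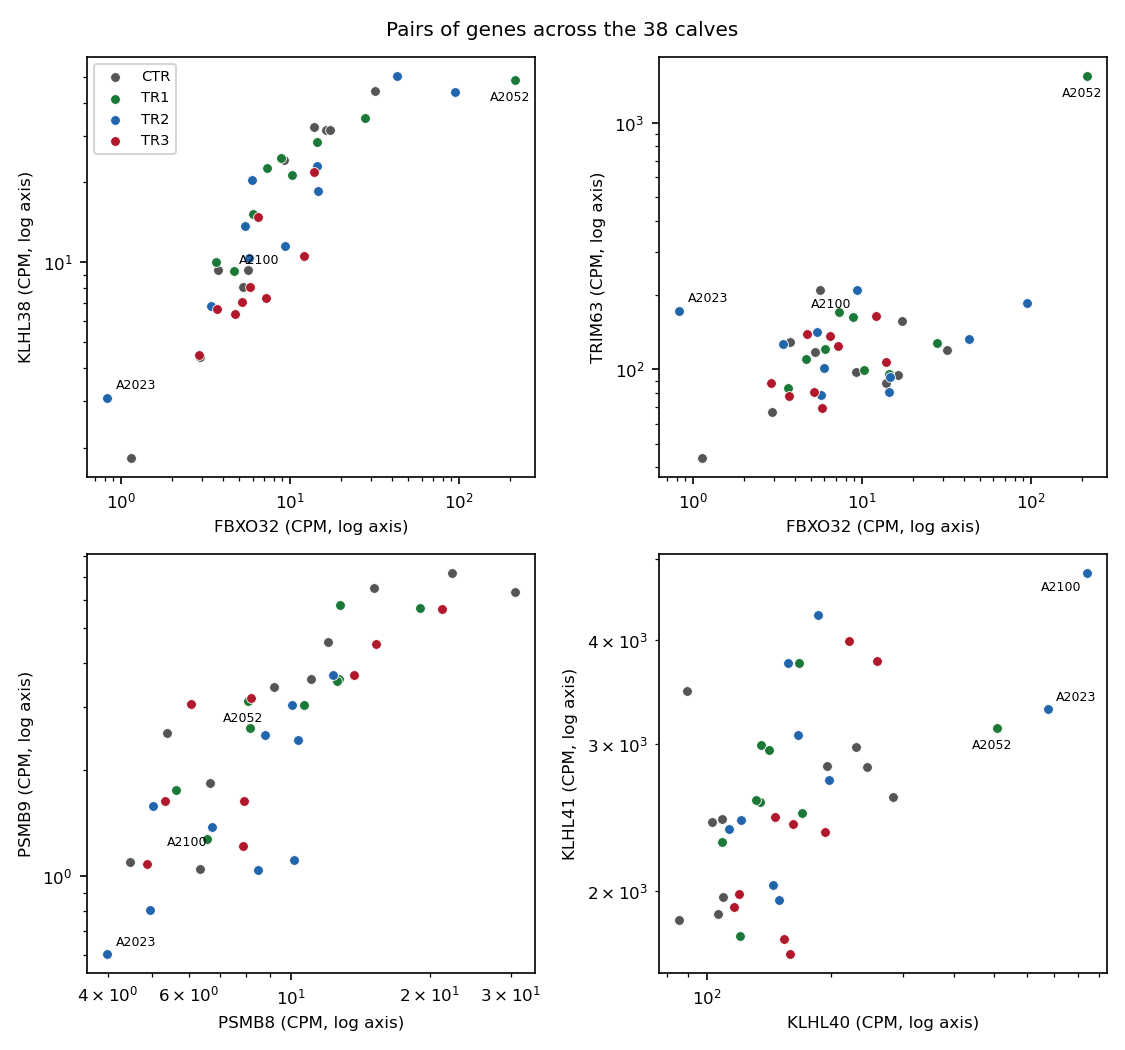
CPM of 4 pairs of members in each of the 38 calves, both axes log, coloured by group and not adjusted for sex or dam age. KLHL38 rises with FBXO32 across most calves and is highest in A2090, at 50.4 CPM with FBXO32 at 43.2. It is no higher in A2099 and A2052, where FBXO32 is at 95.1 and 213.6 CPM. PSMB9 rises with PSMB8, whereas in TRIM63 the calf A2052 lies alone at 1543 CPM and the next calf is at 210.2.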

How the data were processed

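LD biopsies of 38 calves were sequenced as poly-A, strand-specific paired-end libraries. The authors aligned the reads with STAR 2.7.3a to ARS-UCD1.2 with Ensembl release 100 genes and deposited raw counts per gene. Which strand column was kept is not given in the sources used here, so reads of 23 members that overlap another gene in RefSeq's ARS-UCD2.0 table may be shared. Library totals and groups are given above, and every count column was used.

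The members, lists, pairs and tests were chosen with earlier results of these data known. Counts were fitted with edgeR 4.0.16 in R 4.3.3 (TMM, filterByExpr, glmQLFit and glmQLFTest) with dam age, sex and group, over 12964 genes with Benjamini-Hochberg adjustment and a threshold of 0.05. SE is the log2 effect over the square root of F. For slopes, log2 CPM (prior count 2) of FBXO32 or PSMB8 was added, and that gene was left out of its count. In the SD, slopes and pairs, log2 CPM used library totals scaled by the TMM factors, unlike the plain CPM given elsewhere. Pairs were tested by permutation of residuals. The scripts were tested on simulated counts.

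Members named with values were FBXO32, TRIM63, those of the pairs, all proteasome members, the 3 of largest fold change in each treatment contrast and the called members of each other comparison (at most 8 per direction, or the 3 of smallest p where none was called). Of each related list, the 3 genes of smallest p per slope were named, apart from a gene that is not reported here, and other genes named were chosen after their values were seen. Alternatives were DESeq2 1.42.0, other normalization, filters, covariates and samples. Any 2 calves of a group differed beyond counting error.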

Additional observations from a re-analysis of the deposited data

Results flagged for a closer look

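In 10 of 68 groups of calves tested over 17 members, 1 calf lay far from the others of its group in CPM. The criterion is set to flag about 1 in 20 groups of normally distributed values, a rate that was not checked for CPM. Over all 11687 genes at 1 CPM or more the same criterion picked out 14.3% of the groups, and 26.0% in TR1. Some of the 17 were also named for their large fold changes. The TR1 calf A2052 accounted for 5 of them: FBXO32 at 213.6 CPM with the next calf at 27.8, TRIM63 at 1543 with the next at 169.9, PSME4 at 612.4 with the next at 138.3, KLHL40 at 506.5 with the next at 170.0 and PSMB2 at 124.9 with the next at 58.6. FBXO32 also had a calf apart in CTR, A2034 at 31.9 CPM with the next at 17.2, and in TR2, A2099 at 95.1 with the next at 43.2. The other 3 were PSMB2 in the TR2 calf A2023 at 74.8 CPM with the next at 56.2, USP18 in the TR1 calf A2047 at 3.47 with the next at 2.05, and KLHL3 in the TR3 calf A2020 at 3.17 with the next at 1.96.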

How the results depend on the processing

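No paired analysis was possible because the labels give no replicate numbers that tie calves of different groups. Of the values under other settings that answer a comparison, 6 lost the threshold, 1 gained it, 4 counts moved by over 1.5 times and the other 326 did none of these. Many of the 326 compare a count of 0 members with 0, so they are no measure of stability. They also hold the FBXO32 slope counts of 12 without A2052 and 10 without A2052 and A2099. There, 7 and 9 of the 15 members no longer passed. For single members outside the treatment contrasts, 52 values of 908 lost the threshold and 1 reversed. Shifts of the treatment values were set against the SD of single calves and not against the SE of the value. None exceeded that limit, which is therefore no measure of stability. TRIM63 in TR1 went from 0.76 (SE 0.38) to 0.03 without A2052 and stayed within its SD of 0.757. Of 2397 such values 89 changed sign, in 21 of 51 member and contrast pairs. PSMD10 in TR2 (16 of 47 settings), KLHL38 in TR2 (12) and KLHL40 in TR3 (12) did so the most often. Without the 2 calves farthest from the median, r was 0.13 for FBXO32 and TRIM63, -0.30 for FBXO32 and USP2 and 0.34 for KLHL40 and KLHL41, the slope of TRIM28 on FBXO32 turned to -0.031, and 1 member passed on the PSMB8 slope. Without A2052, A2023, A2099 and A2100, chosen after seeing the data, r was 0.31 for FBXO32 and TRIM63 and -0.36 for FBXO32 and USP2, and 5 members passed on the FBXO32 slope. With the share of the 10 highest genes as a term, r was -0.41 for FBXO32 and PSMD14 and 0.29 for PSMB2 and PSMD14, and 1 member passed on the PSMB8 slope, as with library size in place of TMM. The cause of these shifts was not tested. Leaving out each calf in turn gave 12 to 17 members on the FBXO32 slope and 0 for the treatment contrasts, sex and dam age. Over all genes, the FBXO32 slope called 2618 genes, 2386 without a filter on low counts and 519 without the 4 calves, and the PSMB8 slope called 319, 688 with dam age as a factor, 576 with DESeq2, 498 without sex, 145 with the share of the 10 highest genes and 167 without the 2 farthest calves. Members near 1 CPM, such as KLHL3 and USP18, rest on few counts.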
